A study of Mus musculus with 13 samples.

Results

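The 34 genes described here are genes of developing T cells (thymocytes) and of lymphocytes, picked by their symbols, and all 34 were found among the 24394 symbols of the count table. They were followed in 13 mouse RNA libraries of 6 groups. Thymic epithelial cells (TEC), the stromal cells that guide thymocyte development, came from the E15.5 fetal thymus, without treatment (n = 2). Mouse embryonic fibroblasts (MEF) from E13.5, also untreated, were the negative control of the study (n = 2). Induced cells, called iTEC, were counted 2 days (n = 2) and 10 days (n = 3) after Cre, and on day 12 as cells sorted into an Epcam+ fraction (n = 2) and an Epcam- fraction (n = 2). MEF and iTEC all carried iFoxn1/+, a copy of the transcription factor gene Foxn1 that Cre switches on, and iTEC received Cre from the plasmid pPGK-Cre-bpA, whose PGK promoter is active in most cells. The genotype label of every sample reads N/A, the strain is not given, and all samples share 1 protocol text, so the sources used here do not say how the fetal TEC were isolated. No label says that replicates came from separate animals or cultures, so the p-values measure the spread between these samples, which may be technical.

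T cells form in the thymus from blood-borne progenitors. Early thymocytes carry neither CD4 nor CD8 (double negative, DN), rearrange their T cell receptor genes with the Rag1 and Rag2 recombinase, and are tested for a working beta chain, which pairs with the surrogate alpha chain encoded by Ptcra. They then carry both coreceptors (double positive, DP), rearrange the alpha chain, and after selection on thymic epithelium mature as CD4 or CD8 cells. Thymocytes lie tightly packed against TEC, whose ligands commit them to the T lineage, and in the fetal thymus DN cells appear before DP cells. Each stage has its own genes, while the CD3 chains and the kinase Lck run through all of them.

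Libraries held 35805780 to 86465460 counts. Levels are given in CPM, counts scaled to a common library size with TMM factors, and a floor of 3 counts in 1 library lay at 0.0300 to 0.0776 CPM. The fetal TEC libraries held TEC markers: Foxn1 stood at 362 and 362 CPM and the epithelial adhesion gene Epcam at 312 and 574 CPM, and the leukocyte gene Ptprc was counted too, at 82.3 and 10.7 CPM. The libraries differed in ways that touch the results below. The rank correlation of count with transcript length was 0.0495 and -0.0112 in fetal TEC and -0.0784 in Epcam+ replicate 2, against 0.313 to 0.346 in the other 10 libraries. The female-specific RNA Xist stood at 795 to 2278 CPM in MEF and Epcam-, at 1.34 CPM or less in the other cultures and at 6.05 and 8.21 CPM in fetal TEC, by library size alone. Ddx3y, a gene of the Y chromosome, ran the other way. It stood at 0.0164 CPM or less in MEF and Epcam-, at 30.5 to 202 CPM in the other cultures and at 26.3 and 17.1 CPM in fetal TEC. Where MEF or Epcam- is compared with day 2, day 10 or Epcam+, sex or embryo of origin cannot be told apart from Cre, day or fraction. A list of 19 macrophage and dendritic cell genes (Cd74 left out) summed to 587 and 602 CPM in fetal TEC. The sum was 306 and 223 CPM in the Epcam+ libraries and reached 3722 and 3567 CPM in MEF, against 15.8 to 73.7 CPM in the day 2, day 10 and Epcam- libraries. Their part in the results was not tested.

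Of the 34 genes, 7 had no count in any of the 11 culture libraries and 7 had counts in all 11. The 250 bases upstream of the start are shown for the 6 of the no-count genes that the RefSeq promoter table (GRCm38.p6, the mm10 build) holds, and for Lef1 and Runx3 from the genes counted everywhere, so that both kinds can be compared. Each runs 5′ to 3′ on the strand of its gene, with CG dinucleotides, the sites of DNA methylation, in capitals.
Cd3d: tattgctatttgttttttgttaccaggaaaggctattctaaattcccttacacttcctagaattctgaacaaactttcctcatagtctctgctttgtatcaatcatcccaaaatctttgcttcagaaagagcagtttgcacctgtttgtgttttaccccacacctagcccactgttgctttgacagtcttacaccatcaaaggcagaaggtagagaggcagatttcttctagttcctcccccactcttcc
Cd3g: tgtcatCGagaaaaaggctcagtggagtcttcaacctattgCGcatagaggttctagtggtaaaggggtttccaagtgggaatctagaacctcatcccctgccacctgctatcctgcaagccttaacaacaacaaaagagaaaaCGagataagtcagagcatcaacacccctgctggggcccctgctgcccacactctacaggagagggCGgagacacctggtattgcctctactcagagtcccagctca
Cd3e: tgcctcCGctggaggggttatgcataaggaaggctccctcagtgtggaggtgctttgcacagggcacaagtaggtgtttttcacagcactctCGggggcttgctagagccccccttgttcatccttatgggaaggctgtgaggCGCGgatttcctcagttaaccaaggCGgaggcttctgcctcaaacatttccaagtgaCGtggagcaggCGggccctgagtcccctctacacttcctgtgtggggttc
Cd247: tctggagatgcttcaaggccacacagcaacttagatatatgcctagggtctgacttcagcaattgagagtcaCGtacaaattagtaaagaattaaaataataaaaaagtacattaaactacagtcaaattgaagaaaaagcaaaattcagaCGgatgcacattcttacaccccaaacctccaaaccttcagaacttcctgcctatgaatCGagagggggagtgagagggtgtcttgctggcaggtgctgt
Rag2: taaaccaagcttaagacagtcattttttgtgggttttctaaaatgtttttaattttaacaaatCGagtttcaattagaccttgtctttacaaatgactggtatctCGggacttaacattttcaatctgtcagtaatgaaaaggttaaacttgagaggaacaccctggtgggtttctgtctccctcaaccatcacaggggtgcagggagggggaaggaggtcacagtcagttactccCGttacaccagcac
Dntt: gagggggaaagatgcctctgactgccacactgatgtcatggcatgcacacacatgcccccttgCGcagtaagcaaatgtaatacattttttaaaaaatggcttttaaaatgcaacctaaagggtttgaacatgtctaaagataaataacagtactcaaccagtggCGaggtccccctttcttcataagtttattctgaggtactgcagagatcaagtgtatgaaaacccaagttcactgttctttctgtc
Lef1: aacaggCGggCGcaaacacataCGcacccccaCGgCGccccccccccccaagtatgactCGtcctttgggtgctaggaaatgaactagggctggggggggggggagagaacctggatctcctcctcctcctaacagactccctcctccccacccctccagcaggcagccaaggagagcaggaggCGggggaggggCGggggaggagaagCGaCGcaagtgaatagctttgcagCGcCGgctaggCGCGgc
Runx3: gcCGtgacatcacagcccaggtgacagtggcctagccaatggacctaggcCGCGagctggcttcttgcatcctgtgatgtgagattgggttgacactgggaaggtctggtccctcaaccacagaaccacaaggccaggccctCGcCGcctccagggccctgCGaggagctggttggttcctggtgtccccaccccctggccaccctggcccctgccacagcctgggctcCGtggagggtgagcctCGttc

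The windows lie at chr9:44981536-44981785 (Cd3d, plus strand), chr9:44980432-44980681 (Cd3g, minus), chr9:45009612-45009861 (Cd3e, minus), chr1:165788431-165788680 (Cd247, plus), chr2:101624462-101624711 (Rag2, plus), chr19:41029025-41029274 (Dntt, plus), chr3:131110073-131110322 (Lef1, plus) and chr4:135120395-135120644 (Runx3, plus). Cd3d and Cd3g point away from each other with their starts 1355 bases apart, and the start of Cd3e lies 27841 bases from that of Cd3d. The 6 windows of no-count genes held 0 to 7 CG dinucleotides (median 3) and a median of 41.4% G and C. The windows of 6 genes counted in every culture held 5 to 37 (median 11.5), with 65.8% G and C. Over all 17224 windows of the same length for symbols of the table, the median was 10 CG dinucleotides (0 to 56) and 55.6% G and C. The 13 windows of members counted in some but not all cultures held 0 to 44 (median 3), with 56.0% G and C. By their medians, the no-count genes thus had fewer CG dinucleotides than the typical start, but so did those counted in some cultures. The broadly counted ones had about as many as the typical start. With 6, 13 and 6 genes this is a description only, and it says nothing of methylation, which was not measured. Of all members, 25 had a window. The letters TGTGGT, bound by RUNX factors, stood on either strand in 4 of these 25 windows (16.0%), against 12.1% of all windows. The letters CTTTGA, or in their place CTTTGT, bound by TCF and LEF factors, stood in 5 (20.0%), against 25.9%. A motif of E proteins (CACCTG, with CAGCTG and with CATCTG as variants) stood in 12 (48.0%), against 35.6%. The letters GATA with A or T before them and A or G after them, bound by GATA factors, stood in 5 (20.0%), against 23.9%, and the TATA box letters TATAAA in 0, against 11.9%. None of these letter sets contains another, and a match is not a bound site.

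RNA of the CD3, recombination and CD4 and CD8 coreceptor genes was present in both fetal TEC libraries and absent or nearly so in the cultures, which did hold RNA of other genes of the list. Together the 34 genes took 0.234% and 0.0964% of all counts in fetal TEC replicates 1 and 2, or 2345 and 964 CPM by library size. The same sum was 717 and 1130 CPM in MEF, 242 and 220.4 CPM at day 2, 222, 208 and 207 CPM at day 10, 314 and 36.3 CPM in Epcam+ and 183 and 188 CPM in Epcam-. The sum of MEF replicate 2 thus lay above that of fetal TEC replicate 2. Scaled to transcript length as well (TPM), the sum was 2337 and 1106 TPM in fetal TEC and 2062 and 3484 TPM in MEF, so that the order of their means turned round. Thy1, which fibroblasts express as well, made 9.88 and 13.6 TPM of the sums in fetal TEC and 1944 and 3351 TPM of those in MEF, and the transcription factor genes described below added to the sums of the cultures. For 26 of the 34 genes both fetal TEC libraries lay above every culture, as was the case for 21.4% of the 17004 genes tested. The 8 others were Themis, Cd5, Cd7, Thy1, Il7r, Bcl11b, Ikzf1 and Runx3. Of the 34 genes, 16 passed the filter on low counts only through fetal TEC, so the count of 26 is a description and not a test. In bulk RNA, fewer thymocytes and less RNA per thymocyte cannot be told apart, and neither can thymocytes that came along with the TEC and T-lineage genes transcribed by the TEC themselves.

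**Figure D1:**
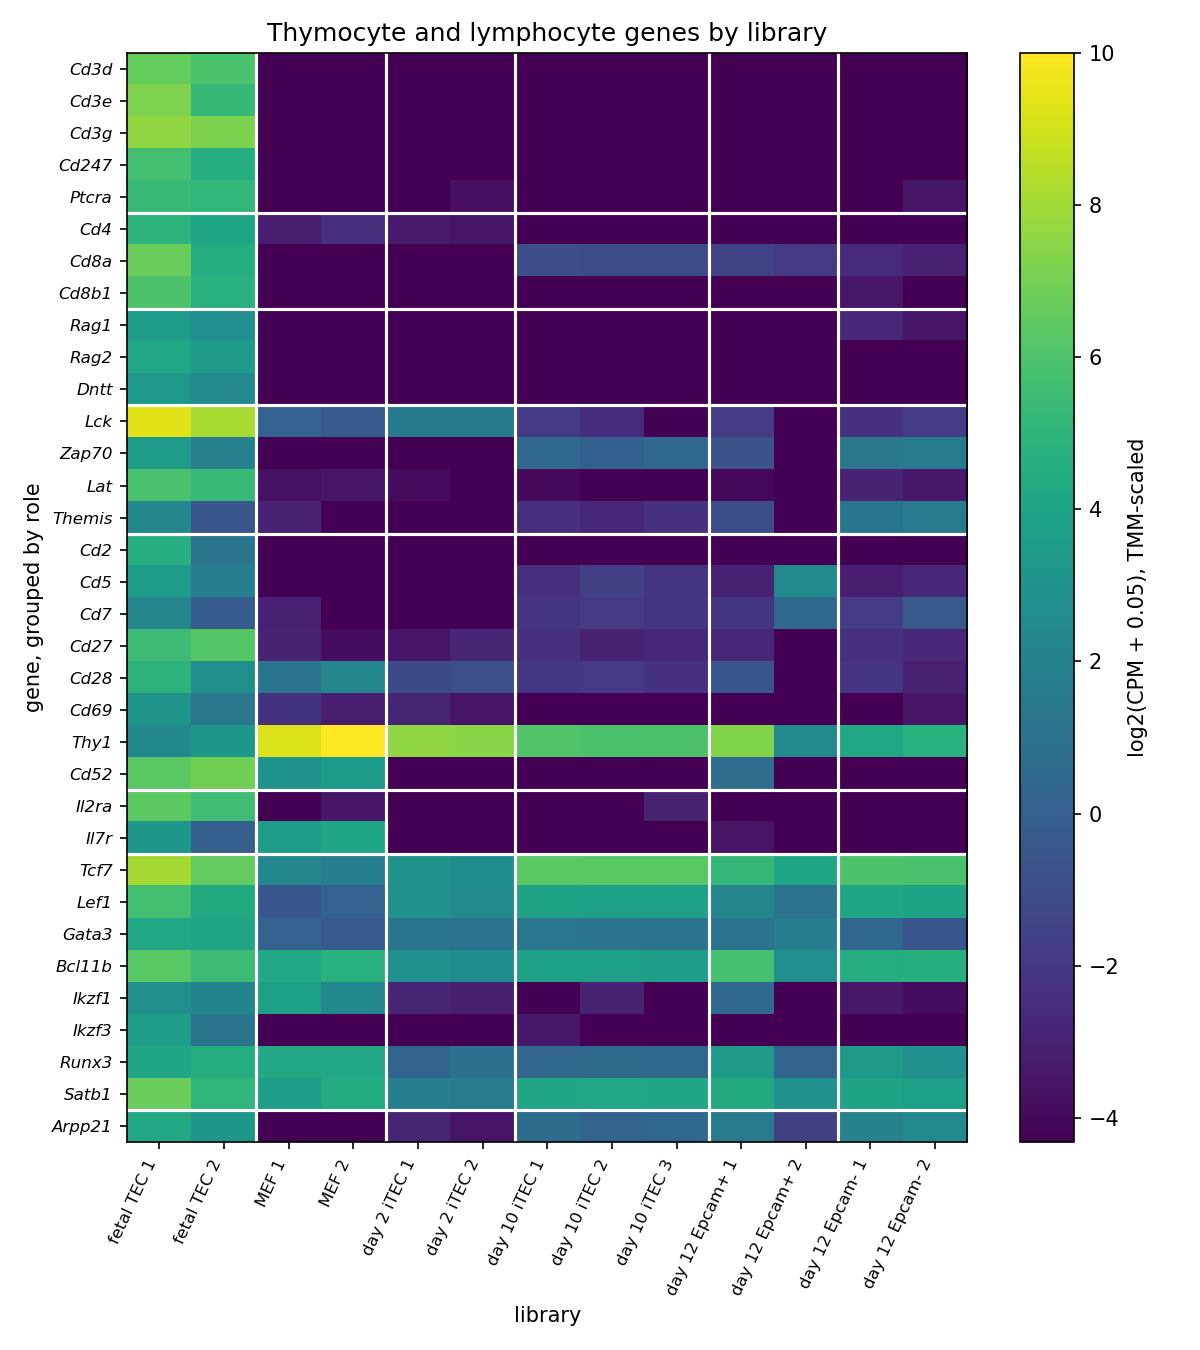
Level of each of the 34 genes (rows, grouped by role) in each of the 13 libraries (columns), as log2(CPM + 0.05); cells run from dark purple (low or no count) to yellow (high). The fetal TEC columns lie above the dark end in every row, while the CD3, recombination and coreceptor rows are at or near the dark end in all 11 culture columns.

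Against day 10 iTEC, the group with 3 libraries, 32 of the 34 genes were higher in fetal TEC and 1 was lower by edgeR's quasi-likelihood test (adjusted p under 0.05); over all genes tested, 59.3% passed, 31.7% as higher and 27.6% as lower. The median log2 change of the members was 8.36 with genes at 0 set to their lower bound, and 10.21 as fitted, against 0.10 over all genes tested. Only 18 of the 34 would have passed the filter on low counts from the cultures alone. The other 16 passed through fetal TEC, so they had to differ, and the counts describe the genes rather than test them as a set. Bounds are computed against 3 counts over the group at 0 and cover counting error only. Leaving out 1 library of that group lowers a bound 1.37- to 3.23-fold through the floor alone.

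The T cell receptor complex gave the plainest contrast. Cd3d, Cd3e and Cd3g encode the CD3 chains and Cd247 the zeta chain, which carry the signal of the receptor into the cell. Cd3g was the highest of them by CPM, with 196 and 146 CPM in fetal TEC replicates 1 and 2, Cd3e had 153 and 38.7 CPM, Cd3d 96.2 and 60.8 CPM and Cd247 51.9 and 23.3 CPM, and no culture library held a single count of any of the 4. Over all genes tested, 2.88% had no count in any culture. Against day 10, Cd3g was at least 8278-fold higher (adjusted p = 5.70e-04), Cd3e at least 4919-fold (adjusted p = 0.00289), Cd3d at least 3842-fold (adjusted p = 0.00109) and Cd247 at least 1878-fold (adjusted p = 0.00243). From fetal TEC replicates 1 and 2 taken singly, the bound was 7246 and 1838 for Cd3e and 2462 and 1104 for Cd247. Ptcra, the surrogate alpha chain of DN cells, had 41.95 and 35.1 CPM in fetal TEC. Its only culture counts were 2 in day 2 replicate 2 and 4 in Epcam- replicate 2, and it was at least 1849-fold higher than at day 10 (adjusted p = 0.00114). The 7 genes without a culture count, these 4 with Rag2, Dntt and Cd2, held 50155 counts in fetal TEC and none among the 665775611 counts of the cultures.

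Coreceptor and recombination genes followed the same order. Cd8a and Cd8b1, the chains of CD8, had 105 and 23.2 CPM and 64.9 and 27.4 CPM in fetal TEC, and Cd4 had 30.6 and 18.03 CPM. Cd8a was also counted in cultures, at 0.464, 0.461 and 0.440 CPM at day 10, and was higher in fetal TEC (log2 change 7.13 ± 0.73, adjusted p = 2.86e-04; 5.66 without fetal TEC replicate 1 and 7.83 without replicate 2). Cd4 was at least 1194-fold higher than at day 10 (adjusted p = 4.05e-04) and Cd8b1 at least 2314-fold (adjusted p = 0.00249; 3079 and 1301 from single fetal TEC libraries). Per transcript length, the level of Cd8a was 3.49 times that of Cd4 in fetal TEC replicate 1 and 1.31 times in replicate 2, so CD8 RNA outweighed CD4 RNA in both, by unequal amounts. Of the genes that cut and edit receptor genes, the recombinase subunit Rag2 had 18.6 and 10.1 CPM and Rag1 11.8 and 6.41 CPM, and Dntt, the polymerase that adds bases at the joints, had 10.1 and 5.40 CPM. All 3 were absent from day 10, with bounds of 709-fold for Rag2 (adjusted p = 0.00384), 449-fold for Rag1 (adjusted p = 0.00230) and 382-fold for Dntt (adjusted p = 0.00569). The ratio of replicate 1 to replicate 2 was close to equal for the 3 genes (0.87 to 0.90 on the log2 scale). Rag1 had 7 and 4 counts in the Epcam- libraries and none in other cultures. Rag1 and Rag2 each share exon sequence with B230118H07Rik, and Cd247 with Pou2f1 and Gm16565, and whether strand was used in counting is not given, so these counts are uncertain as single genes.

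Among the proximal signalling genes, Lck, the kinase that starts receptor signalling, was the most abundant member by CPM, with 656 and 283 CPM in fetal TEC and 0.217, 0.128 and 0 CPM at day 10 (log2 change 11.87 ± 1.22, adjusted p = 1.11e-04; 11.14 without fetal TEC replicate 1, and 12.79 without day 10 replicate 1). The adaptor Lat had 60.04 and 40.7 CPM in fetal TEC and a single count in day 10 replicate 1, a ratio of 7359 with a 95% counting interval of 1320.2 to 290699 (adjusted p = 2.70e-05). Both were far above every culture. Themis, which tunes receptor signals at the DP stage, had 4.69 and 0.649 CPM in fetal TEC and 0.139, 0.102 and 0.155 CPM at day 10 (log2 change 4.31 ± 1.54, adjusted p = 0.0379). The call was lost in 6 of the 13 fits that left out 1 library, and the change was 2.26 without fetal TEC replicate 1 and 5.11 without replicate 2. Zap70, the kinase recruited to the phosphorylated CD3 chains, was the one member that did not pass: it had 11.5 and 3.79 CPM in fetal TEC and 1.38, 1.02 and 1.32 CPM at day 10, without overlap (log2 change 2.62 ± 1.19, adjusted p = 0.0891). Themis overlaps 4930519F09Rik in exon sequence.

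Surface receptors were mixed. Cd27, a costimulatory receptor, had 44.3 and 74.1 CPM in fetal TEC and 0.139, 0.0769 and 0.103 CPM at day 10 (log2 change 9.06 ± 0.93, adjusted p = 1.11e-04), and Cd28, the main costimulatory receptor, had 30.9 and 6.88 CPM and 0.201, 0.205 and 0.155 CPM (log2 change 6.64 ± 1.32, adjusted p = 0.00284; 5.17 without fetal TEC replicate 1 and 7.34 without replicate 2). Cd52, a small surface glycoprotein of lymphocytes and other leukocytes, had 82.1 and 124 CPM in fetal TEC and no count at day 10, at least 4746-fold higher (adjusted p = 0.00370). Cd2, an adhesion receptor, had 26.1 and 2.25 CPM, the widest gap between the fetal TEC libraries, and was at least 751-fold higher (adjusted p = 0.0132; 1238 and 107 from single fetal TEC libraries). All 4 lay above every day 10 library; Cd28 and Cd2 were higher in fetal TEC replicate 1, and Cd27 and Cd52 in replicate 2. Cd69, an early activation marker that positively selected thymocytes carry, had 8.55 and 2.60 CPM and was at least 284-fold higher (adjusted p = 0.00243; 405 and 123 from single libraries). Cd5, a brake on receptor signalling, had 11.4 and 3.45 CPM and 0.139, 0.282 and 0.181 CPM (log2 change 5.20 ± 1.48, adjusted p = 0.0182), and Cd7, an early lymphoid receptor, 4.46 and 0.832 CPM and 0.186, 0.205 and 0.181 CPM (log2 change 3.78 ± 1.27, adjusted p = 0.0303). The calls of Cd5 and Cd7 were lost in 4 and 6 of the 13 fits without 1 library, among them each fit without a day 10 library and the fit without fetal TEC replicate 1, where the changes were 4.09 and 2.11; without replicate 2 they were 5.81 and 4.52. Thy1, the glycoprotein by which mouse T cells are often recognised and which fibroblasts and neurons carry too, was the 1 member lower in fetal TEC, with 5.12 and 9.64 CPM against 68.99, 61.1 and 63.2 CPM at day 10 (log2 change -3.13 ± 1.05, adjusted p = 0.0279; call lost without either fetal TEC library or day 10 replicate 1 or 3).

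The cytokine receptor genes mark DN cells. Il2ra, the alpha chain of the interleukin 2 receptor (CD25), had 83.4 and 48.7 CPM in fetal TEC and 3 counts at day 10, all in replicate 3, a ratio of 3248 (95% counting interval 1111 to 15755, adjusted p = 0.00102). Il7r, the receptor chain through which interleukin 7 keeps early thymocytes alive, had 9.56 and 0.974 CPM in fetal TEC and none at day 10, at least 278-fold higher (adjusted p = 0.00443; 453 and 46.2 from single fetal TEC libraries). Il2ra thus stood far above Il7r in both fetal TEC libraries, also per length: Il2ra had 52.3 and 22.3 and Il7r 4.61 and 0.342 TPM, the level scaled to transcript length and library.

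Transcription factor genes had the smallest median change of the roles with more than 1 gene (log2 2.56 for 8 genes), and 6 of the 8 were counted in every culture. Tcf7, the factor that starts the T program downstream of Notch, had 266 and 92.9 CPM in fetal TEC and 80.4, 77.3 and 76.3 CPM at day 10 (log2 change 1.20 ± 0.44, adjusted p = 0.0380). Its call was lost in 9 of the 13 fits without 1 library, and the change was 0.24 without fetal TEC replicate 1 and 1.76 without replicate 2. It was also lost with an offset for transcript length (0.47, adjusted p = 0.346). Lef1, its relative, had 52.5 and 20.9 CPM and 15.4, 13.6 and 14.8 CPM (log2 change 1.33 ± 0.46, adjusted p = 0.0315), with the call lost in 6 of 13 such fits and a change of 0.51 without fetal TEC replicate 1. The chromatin organiser Satb1 had 105 and 34.2 CPM and 17.8, 18.2 and 17.1 CPM (log2 change 1.98 ± 0.53, adjusted p = 0.0108; 0.94 and no call without fetal TEC replicate 1, 2.56 without replicate 2), and Bcl11b, which fixes T-lineage commitment, 76.3 and 45.8 CPM and 14.9, 13.8 and 12.98 CPM (log2 change 2.14 ± 0.66, adjusted p = 0.0194; call lost in 4 of 13 fits, those without fetal TEC replicate 1 or a day 10 library). For these 4 the fetal TEC levels lay above the day 10 levels, though by small multiples. Gata3, needed for the CD4 lineage and early T cells, differed more, with 18.9 and 16.7 CPM and 2.40, 2.13 and 2.17 CPM (log2 change 2.99 ± 0.48, adjusted p = 9.83e-04), as did Runx3, the factor of the CD8 lineage, with 17.9 and 22.9 CPM and 1.27, 1.51 and 1.29 CPM (log2 change 3.91 ± 0.73, adjusted p = 0.00222); leaving out 1 library ended neither call. The lymphoid zinc finger genes Ikzf1 and Ikzf3 had 6.71 and 4.44 CPM and 12.96 and 2.23 CPM in fetal TEC and 3 counts each at day 10, ratios of 272 (92.6 to 1322, adjusted p = 0.00586) and 396 (135 to 1922, adjusted p = 0.00699). All 3 counts of Ikzf1 were in day 10 replicate 2 and all 3 of Ikzf3 in replicate 1, and the fitted change of Ikzf3 was 6.73 without fetal TEC replicate 1. Arpp21, an RNA-binding protein gene high in DP thymocytes, had 20.1 and 9.70 CPM and 1.64, 1.13 and 1.34 CPM (log2 change 3.44 ± 0.87, adjusted p = 0.0100; 2.81 and no call without fetal TEC replicate 1). Lef1, Gata3, Satb1, Arpp21, Cd3e and Cd7 share exon sequence with other annotated transcripts, and Lck and Cd27 each with an annotated microRNA, so their counts carry the same limit as those of Rag1 and Rag2.

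Levels of different genes were compared per transcript length within fetal TEC. Counts there hardly rose with length (rank correlation 0.0495 and -0.0112). Dividing by length thus raises short genes such as Cd52 (514 bases) and Cd3g (1023 bases). By CPM, Cd52 lay below Tcf7 in replicate 1 (82.1 against 266 CPM) and above it in replicate 2 (124 against 92.9 CPM). Per length, Lck (525 and 165 TPM in replicates 1 and 2), Cd52 (272 and 299 TPM) and Cd3g (326 and 177 TPM) were the most abundant. Their ranges overlap, so their order is not resolved. Tcf7 (214 and 54.6 TPM) and Cd3e (178 and 32.9 TPM) followed in replicate 1, and their ranges overlap with each other; in replicate 2 Cd27 (75.8 and 92.5 TPM in replicates 1 and 2) came next and lay above both. Themis (2.46 and 0.248 TPM) and Il7r (4.61 and 0.342 TPM) were among the lowest, and the plot of per-length levels shows all 34 genes in both libraries. The 17 lineage-wide genes (CD3 chains, kinases, the adaptor Lat, surface receptors and commitment factors), which are used at several stages, summed to 1687 and 673 TPM. The 6 DN genes (Il2ra, Il7r, Ptcra, Rag1, Rag2 and Dntt) summed to 136 and 65.7 TPM and the 6 DP genes (Cd4, Cd8a, Cd8b1, Arpp21, Themis and Satb1) to 201 and 52.7 TPM. Per length, DP genes therefore outweighed DN genes in replicate 1 and not in replicate 2. By library size alone the DP sum was the higher in both replicates, at 324 and 87.7 CPM against 172 and 82.6 CPM. The 5 genes of mature cells (Cd69, Ikzf3, Runx3, Cd52 and Cd28) summed to 313 and 314 TPM, of which Cd52 alone made 272 and 299 TPM. Several of these genes are used at more than 1 stage, so the sums do not count cells.

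**Figure D2:**
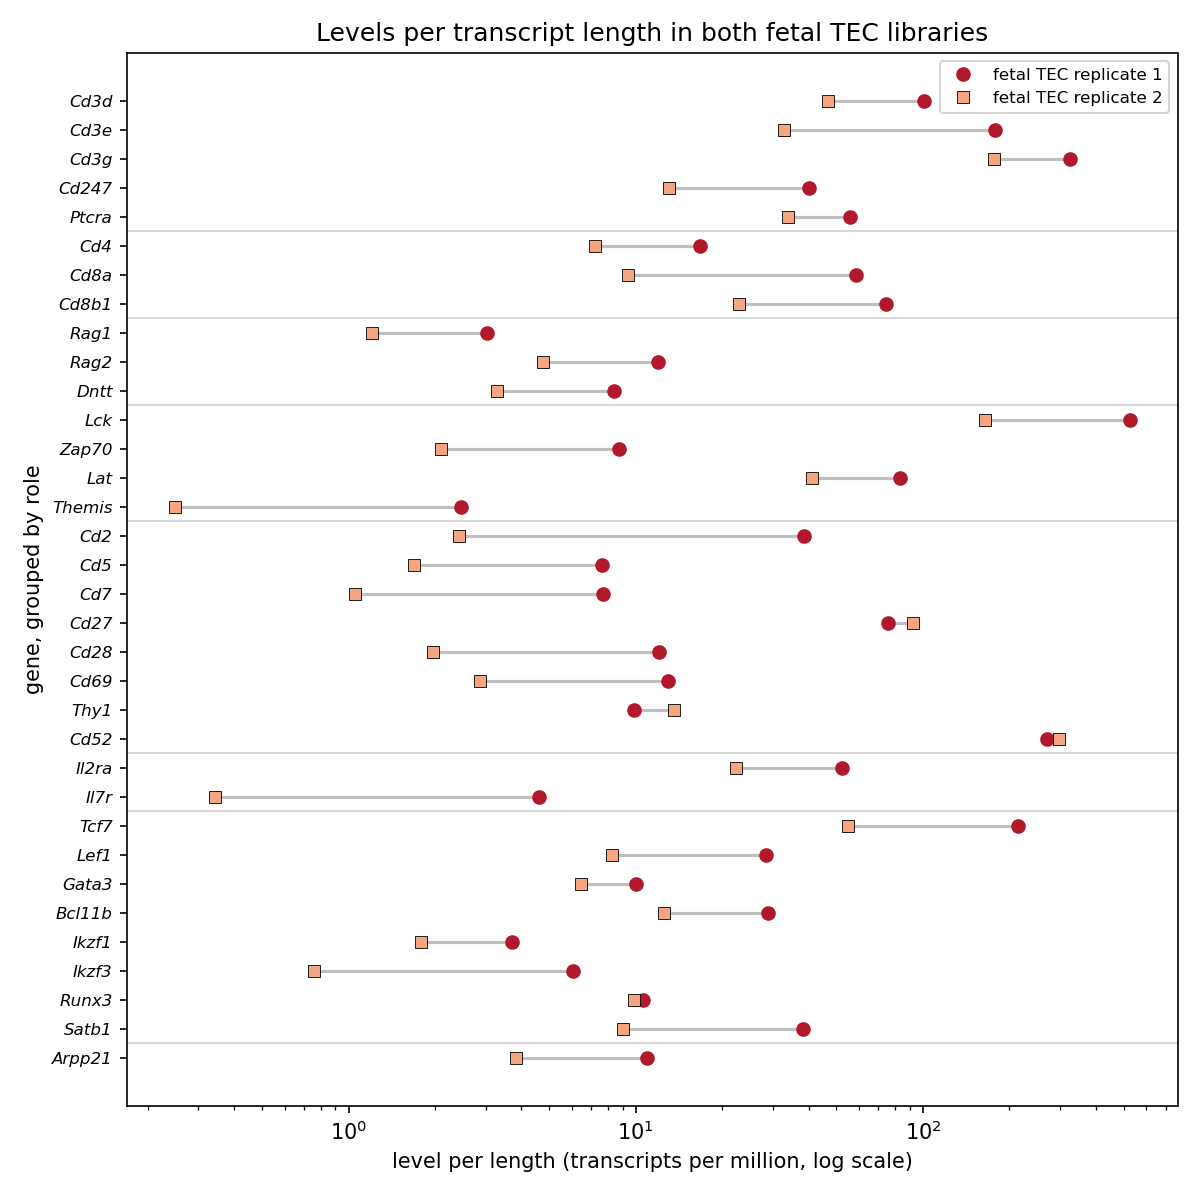
Per-length level (TPM, log axis) of the 34 genes in both fetal TEC libraries, with 1 point per library and the genes grouped by role. Lck, Cd52 and Cd3g sit at the top, Themis and Il7r near the bottom, and replicate 1 lies above replicate 2 for most genes.

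By stage, the 6 DN genes, the 6 DP genes and the 5 mature genes were all higher in fetal TEC than at day 10. Of the 17 lineage-wide genes, 15 were higher, 1 was lower (Thy1) and 1 did not pass (Zap70). Over all genes tested, 31.7% were higher and 27.6% lower. Of the 34 members, 16 passed the filter on low counts only through fetal TEC and had to differ. These counts by stage are therefore a description and not a test. The DN sum was 172 and 82.6 CPM by library size in fetal TEC, against 0, 0 and 0.0838 CPM at day 10 and at most 0.115 CPM in the day 2, Epcam+ and Epcam- libraries. Cultures other than MEF therefore held almost none of the RNA of these 6 DN genes. MEF had 11.7 and 16.7 CPM, nearly all from Il7r. The DP sum was 324 and 87.7 CPM in fetal TEC and 21.6, 21.6 and 20.6 CPM at day 10, where Satb1 made up most of it.

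Against the sorted day 12 cells the picture was close. Relative to Epcam+, 27 genes were higher in fetal TEC and 1 lower (Thy1), against 16.4% of all genes tested higher and 19.2% lower (35.6% in all). Relative to Epcam-, 26 were higher and none lower, against 27.7% and 25.2% (52.9% in all). The median log2 change with bounds was 7.98 against Epcam+ (-0.17 over all genes tested) and 8.60 against Epcam- (0.16). Genes that did not pass against Epcam+ were Themis, Cd5, Cd7, Bcl11b, Ikzf1 and Runx3, and against Epcam- they were Zap70, Themis, Cd7, Thy1, Lef1, Bcl11b, Runx3 and Arpp21. With only the Epcam+ and fetal TEC libraries in the fit, 10 members passed against Epcam+. Over the whole table that fit called 219 genes, where the main fit called 6052. The Thy1 change against Epcam+ was log2 change -3.45 ± 1.11, adjusted p = 0.0367, and it reversed to 0.40 without Epcam+ replicate 1 (-4.42 without replicate 2). Its call was lost in 12 of the 13 fits without 1 library, and among the 27 higher genes that of Zap70 was lost in 11, that of Arpp21 in 9 and that of Cd52 in 4. Relative to day 2, 33 genes were higher and Thy1 was lower (30.5% and 24.3% of all genes tested, 54.8% in all). Relative to MEF, 27 were higher and Thy1 was lower (31.5% and 26.3%, 57.8% in all), and Cd28, Cd52, Il7r, Bcl11b, Ikzf1 and Runx3 did not pass. A p above the threshold does not show that levels were alike. All 5 comparisons share the fetal TEC libraries, so they do not stand independently of each other.

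The fetal TEC libraries did not hold equal amounts of this RNA. The members were higher in replicate 1 for 30 of 34 genes, with a median log2 ratio of replicate 1 to replicate 2 of 1.10 (-0.91 to 3.53), against -0.03 over 14178 genes with at least 100 counts. The 4 exceptions were Thy1, Cd52, Cd27 and Runx3. Most other leukocyte lists had medians above 0: 0.85 for 35 further T-lineage genes, 1.01 for 9 genes of natural killer, innate lymphoid and gamma delta T cells, 0.88 for 15 pan-leukocyte genes and 0.49 for 17 macrophage and dendritic cell genes, of which 9 were higher in replicate 1. The 7 B cell genes had a median of -0.78, with 3 higher in replicate 1. The 14 TEC genes leaned the other way, with a median of -0.63 and 1 of 14 higher in replicate 1. The lean moved with transcript length as well. The 11 members under 1500 bases had a median of 0.56, against -0.30 over all genes of that length, and the 13 members of 3000 bases or more had 1.33 and were all higher in replicate 1, against 0.12. The part of length was not tested further, and with 2 libraries the ratio has no replicate check. By role, the recombination genes (0.88) and the receptor complex (0.66) had smaller medians than proximal signalling (1.41) and coreceptors (1.24), with 3 to 5 genes each; Cd2 had the largest ratio.

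**Figure D3:**
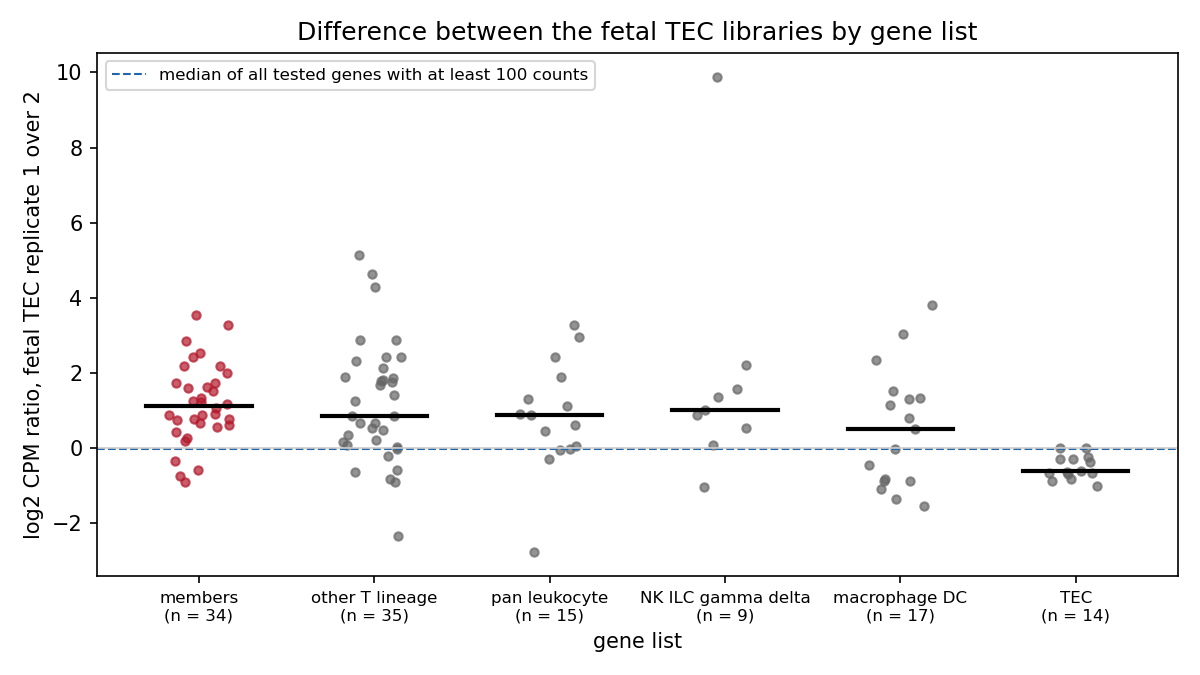
Log2 ratio of CPM in fetal TEC replicate 1 to replicate 2 for single genes (points), by gene list, with bars for the list medians and a dashed line for the median of all genes tested. The 34 members centre at 1.10 and the 14 TEC genes at -0.63.

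Within the cultures, only part of the list was counted. The 7 genes with counts in all 11 libraries were Thy1 and the factors Tcf7, Lef1, Gata3, Bcl11b, Runx3 and Satb1. Between day 10 iTEC and MEF, 5 members were higher and 7 lower, against 9.42% and 6.58% of all genes tested (16.0% in all); the median was 0.00 for members and for all genes. Tcf7 had 80.4, 77.3 and 76.3 CPM at day 10 and 4.88 and 3.55 CPM in MEF (log2 change 4.21 ± 0.54, adjusted p = 8.92e-04), and Lef1 had 15.4, 13.6 and 14.8 CPM and 0.691 and 1.10 CPM (log2 change 4.02 ± 0.57, adjusted p = 0.00151). No overlap between the libraries was seen for either, and leaving out any 1 library kept both calls. At day 2 Tcf7 had 8.07 and 6.27 CPM, which did not pass against MEF (log2 change 0.77 ± 0.49, adjusted p = 0.511), and Lef1 had 8.11 and 5.60 CPM, which did (log2 change 2.93 ± 0.56, adjusted p = 0.0152; call lost without any single MEF or day 2 library). These partner genes of Wnt signalling therefore ran in the order MEF, day 2, day 10 by their means. Cd8a was counted at 0.464, 0.461 and 0.440 CPM at day 10 (30, 18 and 17 counts) and not in MEF, at least 18.6-fold higher (adjusted p = 0.00598). Arpp21 had 1.64, 1.13 and 1.34 CPM at day 10 and no count in MEF, at least 57.8-fold higher (adjusted p = 0.00608), and Zap70 had 1.38, 1.02 and 1.32 CPM and no count, at least 51.5-fold higher (adjusted p = 0.0285; call lost in 7 of the 13 fits, each without a MEF, day 10 or Epcam- library). Cd8b1, Cd4, Lat and the CD3 genes did not accompany them: at day 10 only Lat was counted, once.

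The 7 members lower at day 10 than in MEF were Il7r, Cd52, Ikzf1, Cd28, Cd4, Runx3 and Thy1. Il7r had no count at day 10, against 11.5 and 18.1 CPM in MEF, at least 671-fold lower (adjusted p = 0.00941; call lost without MEF replicate 2), and Cd52 had none, against 8.06 and 11.1 CPM, at least 440.5-fold lower (adjusted p = 0.0233; call lost in 7 of 13 fits). Ikzf1 had 3 counts at day 10, all in replicate 2, against 14.01 and 5.01 CPM in MEF (log2 change -8.58 ± 1.85, adjusted p = 0.0131; -7.66 to -12.25 with 1 library left out, call lost without MEF replicate 1 or day 10 replicate 1 or 3). Cd28 had 0.201, 0.205 and 0.155 CPM, against 2.25 and 4.85 CPM (log2 change -4.23 ± 1.21, adjusted p = 0.0416, -3.57 without MEF replicate 2, call lost in 9 of 13 fits). Cd4, with 4 and 7 counts in MEF and none at day 10, was at least 4.27-fold lower (adjusted p = 0.0322, call lost in 9 of 13 fits). At day 2, Cd4 had 3 counts in each library. The macrophage gene Lyz2 stood at 0.0774, 0.102 and 0.129 CPM at day 10, against 1479 and 1424 CPM in MEF, the macrophage receptor Csf1r at 0.356, 0.384 and 0.388 CPM, against 163 and 150.3 CPM, and Ptprc at 1.58, 1.43 and 1.37 CPM, against 36.2 and 80.9 CPM. Of the 19 macrophage and dendritic cell genes, 1 was at 0 in each MEF library and 11 in each day 10 library. Their part in the levels of these 5 genes was not tested; the CD3 genes, Lat, Rag1, Rag2 and Dntt were at 0 in MEF, save 2 counts of Lat in each library. Runx3 had 1.27, 1.51 and 1.29 CPM at day 10, against 20.1 and 19.9 CPM in MEF (log2 change -3.88 ± 0.73, adjusted p = 0.00690), and kept its call whichever library was left out. It was already low at day 2, with 1.18 and 1.86 CPM (log2 change -3.72 ± 0.85, adjusted p = 0.0343; call lost in 11 of 13 fits). Thy1 had 606 and 1111 CPM in MEF, 198 and 177 CPM at day 2 and 68.99, 61.1 and 63.2 CPM at day 10, where it passed against MEF (log2 change -3.74 ± 0.95, adjusted p = 0.0268; call lost without any single MEF or day 10 library). Between day 2 and MEF only Lef1 was higher, and only Il7r, at least 623-fold (adjusted p = 0.0327; call lost without any single MEF or day 2 library), and Runx3 were lower, against 2.87% and 2.65% of all genes tested (5.52% in all). Lck, with 2.72 and 2.68 CPM at day 2 and 1.08 and 0.782 CPM in MEF, did not pass (log2 change 1.53 ± 0.96, adjusted p = 0.496).

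**Figure D4:**
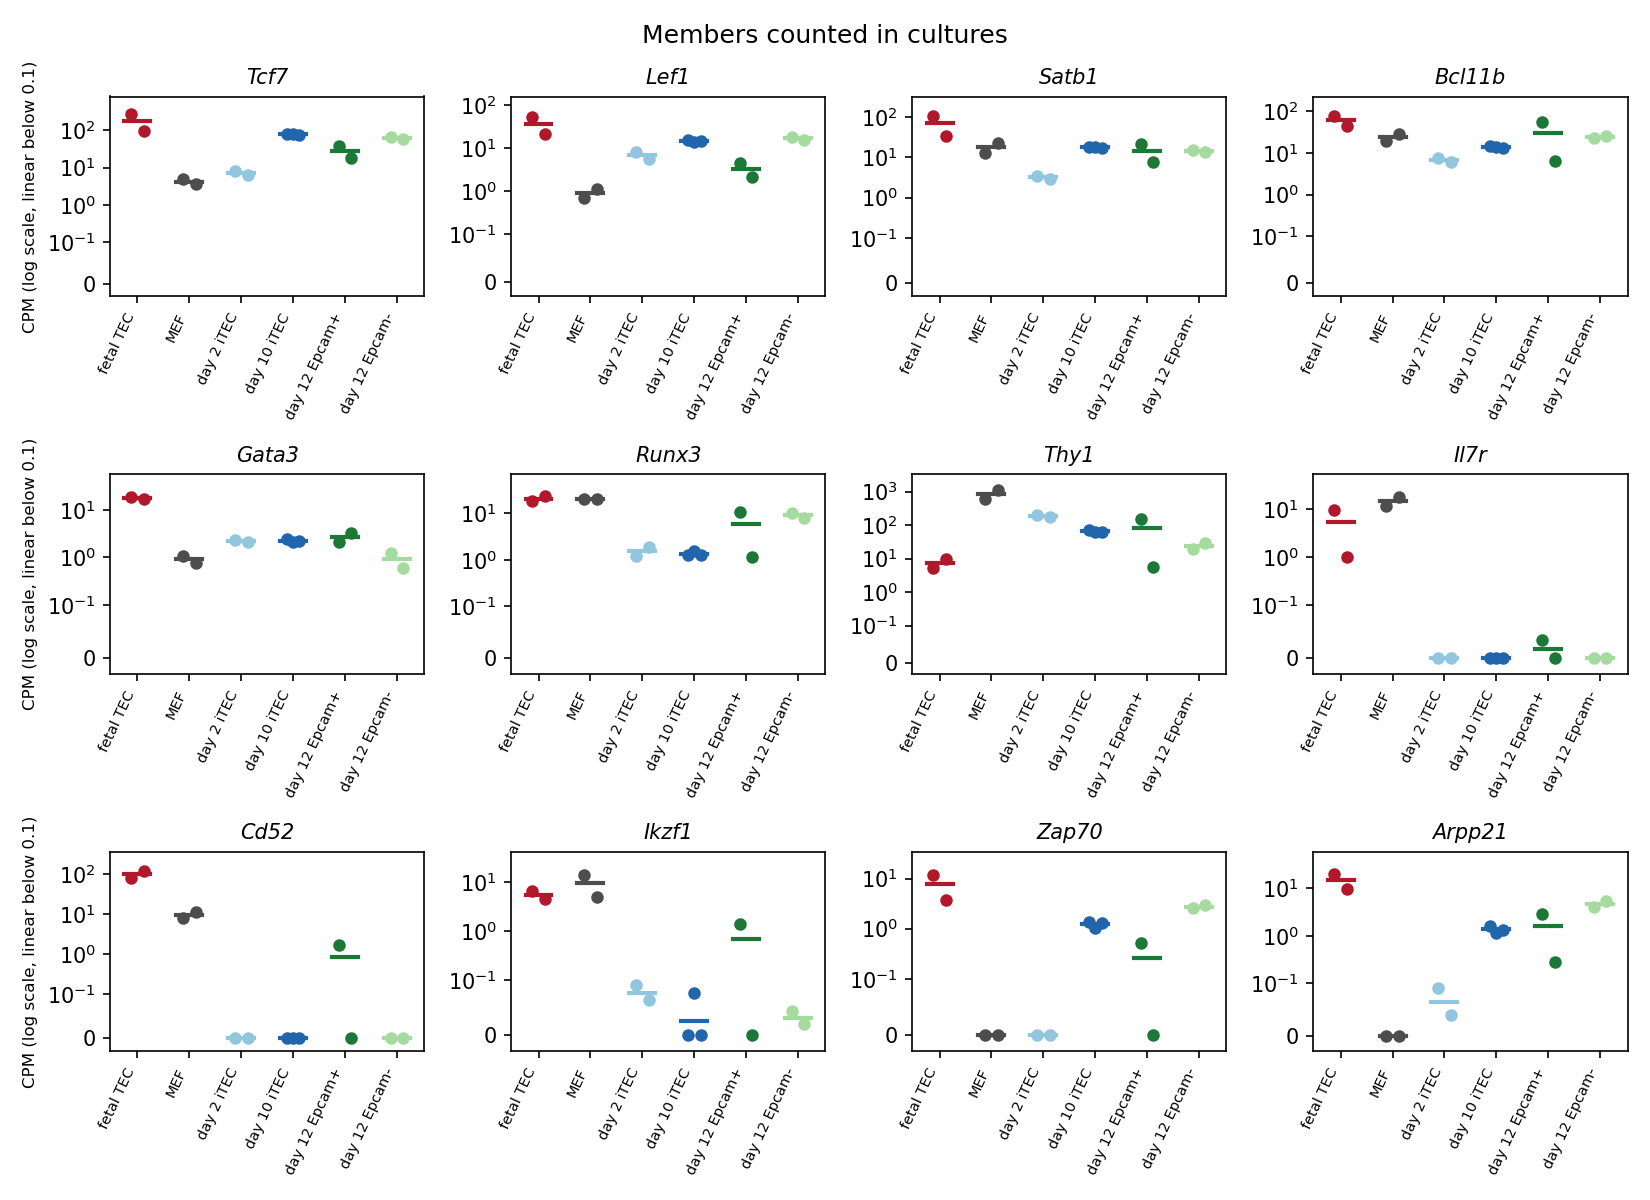
CPM of 12 members with culture counts, or named for their MEF level, in all 6 groups (points are libraries, bars are group means; symmetric log axis, linear below 0.1 CPM). Tcf7 and Lef1 are higher at day 10 than in MEF, Il7r, Cd52 and Ikzf1 are seen in MEF and fetal TEC and little elsewhere, and the Epcam+ libraries lie far apart.

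Among day 12 cells, no member passed between Epcam+ and Epcam- by edgeR, where 0.259% of all genes tested passed (0.241% as higher and 0.0176% as lower). An unadjusted p under 0.05 was seen for 9 members, and for 3261 of the 17004 genes tested. The DESeq2 Wald test called 3 of the members, Cd5 and Gata3 as higher and Lef1 as lower in Epcam+. Over the whole table that test called 1802 genes, 86.6% of them as higher in Epcam+. The Epcam+ libraries differed widely from each other. Bcl11b had 55.5 and 6.55 CPM in Epcam+ and 22.97 and 25.8 CPM in Epcam-, Thy1 had 156 and 5.52 CPM and 18.6 and 28.5 CPM, and Runx3 10.7 and 1.16 CPM and 10.3 and 7.66 CPM, with both Epcam- libraries between the Epcam+ libraries for all 3 genes. Leaving out either Epcam+ library leaves 1 library in that group. The median log2 change of all genes was then -0.37 without replicate 1 and 0.01 without replicate 2. Tcf7 had 37.6 and 17.9 CPM in Epcam+ and 64.3 and 58.4 CPM in Epcam-, and Lef1 4.45 and 2.16 CPM and 18.1 and 15.6 CPM, so both were lower in each Epcam+ library without passing (log2 change -2.35 ± 0.54, adjusted p = 0.130 for Lef1). Some members reached a few CPM in single fractions. Cd5 had 0.0805 and 5.52 CPM in the Epcam+ libraries (7 and 215 counts) and Cd7 0.184 and 1.39 CPM, both highest in replicate 2, which held no count of Ptprc. Zap70 had 0.529 and 0 CPM in Epcam+ and 2.56 and 2.95 CPM in Epcam-, Themis 0.495 and 0 CPM and 2.31 and 2.83 CPM, and Arpp21 2.91 and 0.282 CPM and 3.95 and 5.46 CPM, each higher in both Epcam- libraries without passing. Epcam+ replicate 1 held Cd52 at 1.71 CPM and Ikzf1 at 1.38 CPM, in the library with Lyz2 at 76.1 CPM; both genes had no count in Epcam+ replicate 2, where Lyz2 was at 4.72 CPM. The part of macrophage RNA was not tested.

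Other genes of the T lineage were read the same way. Of 48 listed, 38 were found in the table and 35 tested. Symbols of the receptor constant regions, such as Trac and Trbc1, were on the list, but none was among the 35 tested. Against day 10, 22 of the 35 were higher in fetal TEC, 6 lower and 7 did not pass, with a median log2 change of 4.75, against 31.7% of all genes tested higher and 27.6% lower. Their summed level did not follow that count: the 38 genes summed to 1373 and 772 CPM by library size in fetal TEC, 1444 and 1522 CPM in MEF, 1764 and 1814 CPM at day 2, 1238, 1217 and 1231 CPM at day 10, 1408 and 815 CPM in Epcam+ and 1477 and 1503 CPM in Epcam-. Txk, Trat1, Tespa1, Sh2d1a, Gimap3 and Gimap5, signalling and survival genes of T cells, had no count in any culture. Of the 6 most abundant in fetal TEC, 4 rose: Prkcq, the kinase of the immune synapse, with 64.2 and 56.01 CPM in fetal TEC and 0.0310, 0.0512 and 0 CPM at day 10 (log2 change 10.97 ± 1.49, adjusted p = 6.48e-04), the adaptor Skap1 (85.9 and 19.6 CPM and 1.05, 0.564 and 0.491 CPM; log2 change 6.22 ± 0.73, adjusted p = 2.20e-04), the homing receptor Ccr7 (70.3 and 69.9 CPM and 0.387, 0.256 and 0.362 CPM; log2 change 7.69 ± 0.69, adjusted p = 5.92e-05) and Cd24a, a glycoprotein of immature thymocytes and epithelia (108 and 125 CPM and 25.6, 26.4 and 34.6 CPM; log2 change 2.01 ± 0.40, adjusted p = 0.00276). Id3, a target of receptor signalling that many cells use, had 235 and 369 CPM and 161, 149 and 160.1 CPM and did not pass (log2 change 0.95 ± 0.62, adjusted p = 0.206), nor did Ets1, with 100.7 and 29.9 CPM and 48.3, 48.4 and 51.6 CPM (log2 change 0.40 ± 0.50, adjusted p = 0.501). The 6 that were lower were Zbtb7b, Tcf12, Cd44, Dtx1, Hes1 and S1pr1, named here as the whole of that count; Dtx1 and Hes1 are targets of Notch. The 15 pan-leukocyte genes were all higher in fetal TEC than at day 10 and summed to 2133 and 1185 CPM in fetal TEC, 861 and 1047 CPM in MEF, 3.22 and 3.81 CPM at day 2, 8.35, 8.09 and 8.02 CPM at day 10, 75.7 and 18.5 CPM in Epcam+ and 13.1 and 10.1 CPM in Epcam-, by library size.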

How the data were processed

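RNA of 13 mouse libraries was counted per gene symbol, and the values used are the raw counts the authors deposited, without scaling. FastQC, Trimmomatic, HISAT2, SAMtools, StringTie, DESeq2 and the mm10 build are named per the submitters' processing notes, without versions or settings, and the use of strand is not given there. Columns headed as lacking Cre were read as MEF, since no other group can carry that name.

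The test was the quasi-likelihood test of edgeR 4.0.16 in R 4.3.3, with TMM factors (0.705 to 1.156), filterByExpr by group (17004 of 24394 genes tested) and a single robust fit in which each of the 6 groups has its own mean. P-values were adjusted over all genes tested (Benjamini-Hochberg), with calls at an adjusted p under 0.05. Log2 changes are given ± standard error. All groups share 1 estimate of spread. CPM of genes use TMM factors, sums of lists library size alone. Per-length levels used transcript lengths of GENCODE M21 (95.7% of symbols, all 34 members). Genes at 0 in a group have a bound from 3 counts over that group; 1 to 3 counts give a ratio with a 95% counting interval. Figures were drawn in Python 3.11.15 (matplotlib 3.10.9). Known changes were planted in simulated counts, on which the steps were tested.

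The members and lists were chosen with earlier results of these data known. Named genes are the members and, of each other list, up to 6 with the highest mean CPM in fetal TEC, with Ptprc, Foxn1, Epcam, Lyz2 and Csf1r as checks. Alternatives were DESeq2 1.42.0 size factors and its Wald test, library size without factors, a stricter filter or none, a replicate block, a length offset, a minimum fold of 2, a fit of only the groups compared, and each library left out. Leaving out both Epcam+ libraries was added after seeing the data. No pair of replicates agreed within sampling noise.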

Additional observations from a re-analysis of the deposited data

How the results depend on the processing

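Counts of members passing between fetal TEC and the cultures stayed within 1.5 times under every alternative except 1: against Epcam+, a fit of only those groups gave 10, where the reported count is 28. Over the whole table that fit called 219 genes, where the main fit called 6052. With 1 library left out, the counts ran from 24 to 34 against day 10, 20 to 30 against Epcam+, 18 to 31 against Epcam-, 27 to 34 against day 2 and 23 to 31 against MEF. Day 2 against MEF (3) gave 1 by library size alone, 5 by the DESeq2 Wald test, 7 with the length offset, 1 with the fold minimum, 10 with only those groups, 10 without both Epcam+ libraries (chosen after seeing the data), and 0 to 10 with 1 library left out. Day 10 against MEF (12) ran from 6 to 17 with 1 library left out, with 6 when either MEF library or replicate 1 or 3 of day 10 was dropped. Epcam+ against Epcam- (0) gave 3 by the DESeq2 Wald test and 0 to 11 with 1 library left out. The change of Thy1 between fetal TEC and Epcam+ reversed to 0.40 without Epcam+ replicate 1 and was -4.42 without replicate 2. The cause was not tested.

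With replicate number as a block, 25, 23, 26, 34 and 27 members passed between fetal TEC and day 10, Epcam+, Epcam-, day 2 and MEF, 0 for day 2 against MEF, 5 for day 10 against MEF and 0 for Epcam+ against Epcam-. Same-numbered libraries deviated together (correlation over 0.1) in 1 of 15 pairs of groups (-0.215 to 0.116). That pair was Epcam+ with Epcam- (0.116), the sorted day 12 fractions. Same-numbered libraries were not treated as pairs.

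The summed member level per transcript length was 1721 TPM in fetal TEC (1655 CPM by library size), 2773 in MEF (923), 611 at day 2 (231), 374 at day 10 (212), 325 in Epcam+ (175) and 241 in Epcam- (186); with TMM factors it was 196 CPM at day 10 and 162 CPM in Epcam-. Library size alone moved the median change of all genes between fetal TEC and day 10 from 0.10 to -0.17. Over single members, 1936 of the refits with 1 library left out kept the call, 195 lost it and 1 reversed. Groups of 2 or 3 libraries and the wide Epcam+ pair limit what could pass, and members under about 0.0776 CPM are near 3 counts in the shallowest library.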

Other observations

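Markers of other blood and vessel cells were counted in fetal TEC beside the T-lineage genes. Against day 10 iTEC, 6 of 8 tested B cell genes, 7 of 10 tested genes of natural killer, innate lymphoid and gamma delta T cells, 8 of 9 tested erythroid genes and 9 of 10 endothelial genes were higher in fetal TEC, with 1 endothelial gene lower, against 31.7% of all genes tested higher and 27.6% lower. Gzma, the cytotoxic granule protease granzyme A, had 72.95 and 40.2 CPM in fetal TEC, Nkg7, a granule membrane gene, had 53.4 and 11.6 CPM, and neither had a count in any culture. Cd79b, the B cell receptor chain, had 20.8 and 18.1 CPM in fetal TEC, again without a culture count. The adult alpha globin gene Hba-a1 had 441 and 256 CPM there and no culture count either. Its near-identical copy Hba-a2, with a mean of 513 CPM in fetal TEC, was counted in cultures. The count of Hba-a1 is therefore uncertain as a single gene, and does not show that cultures lacked alpha globin RNA. The 7 B cell genes with enough counts had a median log2 ratio of fetal TEC replicate 1 to replicate 2 of -0.78. It was -0.63 for the 14 TEC genes, 1.10 for the thymocyte and lymphocyte genes and 0.91 for 7 erythroid genes. Blnk and Pou2af1 were the most abundant B cell genes in fetal TEC, with means of 113 and 42.0 CPM, and both were counted in cultures too.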
